A study of Drosophila melanogaster with 26 samples.

Results

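The Mediator complex genes of the Drosophila ovary were taken as every annotated gene whose symbol begins with MED followed by a number, together with *kto*, *skd*, *CycC* and *Cdk8*. This gave 29 genes of the 15341 annotated genes in the tables. Total RNA of whole ovaries was sequenced after ribosomal depletion in 4 groups of 3 libraries. Female germ cells of each group expressed 1 hairpin under *nanos*-GAL4, with *white*, *nsl1*, *nsl2* or *nsl3* as its target. All 4 groups carry the driver, the *white* RNAi line (Bloomington 35573) is the control, and the knockdown lines are Bloomington 58328 for NSL1, Bloomington 58162 for NSL2 and Vienna 108002 for NSL3 in the record labels (the study's own stock list names another Vienna line for NSL3). Each group is 1 fly line, and what the line and what the hairpin contributed cannot be told apart. The labels give no age. The control columns carry the name of the nonvirgin *white* RNAi record, and the virgin *white* RNAi ovaries that the study used for NSL1 and NSL3 were not analysed here. The driver acts in the germline only, while the libraries also hold the follicle cells and other tissue of the dissected ovary, and the study describes the NSL1 and NSL3 RNAi ovaries as atrophied. Fewer cells of a type and less RNA per cell cannot be told apart in such libraries.

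Mediator is the large coactivator complex that carries signals from DNA-bound transcription factors to RNA polymerase II at promoters. Its head and middle modules contact the polymerase, its tail contacts activators, and MED14 is the backbone that joins them. A separable kinase module, made of the kinase Cdk8, its partner cyclin C (*CycC*) and the large proteins Med12 (*kto*, kohtalo) and Med13 (*skd*, skuld), binds reversibly and controls whether the polymerase can engage. The module of each subunit is known mainly from yeast and mammals, and structural studies place MED27, MED28 and MED30 differently. The NSL complex, which holds the histone acetyltransferase MOF, is known for binding the promoters of housekeeping genes, the kind of gene that Mediator subunits are.

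The libraries held 12482452 to 23021900 reads each on the counted features. The range was 20820820 to 23021900 in *white* RNAi and 14507550 to 16699905 in NSL1 RNAi. It was 14868717 to 20911687 in NSL2 RNAi and 12482452 to 15127028 in NSL3 RNAi. The nurse cell and oocyte markers (21 genes) summed to 196801 to 204675 normalized reads in *white* RNAi, 44753 to 51957 with NSL1 RNAi, 135670 to 149768 with NSL2 RNAi and 36248 to 93986 with NSL3 RNAi, so the labelled tissue was present in every group. In both atrophied groups the markers of muscle, hemocytes, ovarian soma, neurons and fat body were far higher. The 12 muscle genes summed to 2502 to 3417 in *white* RNAi against 246398 to 310649.8 with NSL1 RNAi, 3107 to 4993 with NSL2 RNAi and 255799 to 570717 with NSL3 RNAi. The 6 hemocyte genes went from a range of 458 to 812 to 72980.4 to 94602 in NSL1 and 89463 to 201918 in NSL3 RNAi, and the 6 follicle and ovarian soma genes from 875 to 1441 to a range of 18426 to 18742 and 10065 to 19502. The 7 neuron genes reached 869 to 932 and 924 to 1876 against at most 53.4, and the 5 fat body genes 4336 to 5065 and 153 to 309 against at most 5.55. The NSL2 RNAi sums also lay above *white* RNAi without overlap for hemocyte (909 to 1244), neuron (67.9 to 90.2) and fat body genes (24.6 to 81.3), by far less. Of 4 hemocyte genes tested there, 1, *srp*, was higher at an adjusted p below 0.05 by limma, and 2 had negative fold changes. The neuron and fat body lists had 1 tested gene each, of which the fat body gene *Lsp2* was called higher. In NSL2 RNAi 6 of 11 tested muscle genes and 2 of 5 tested ovarian soma genes, *tj* and *slbo*, were also called higher, and 0 lower. Of the 21 nurse cell and oocyte genes 13 were called lower there and 1, *aub*, higher. Among all genes tested in NSL2 RNAi, 18.6% were called lower and 16.1% higher. In *white* RNAi the hemocyte gene *He* had 0 reads, and every other marker of these lists had reads there. The 13 eggshell genes summed to 8640.4 to 53559 in *white* RNAi. NSL2 RNAi held 292845 to 500713, NSL3 RNAi 64670 to 144244 and NSL1 RNAi 34681 to 69619. Only the sums of NSL1 RNAi overlapped the controls. By limma 13, 6 and 7 of the 13 genes were higher in NSL2, NSL3 and NSL1 RNAi (adjusted p below 0.05), and 0 were lower. Of all genes tested, 16.1%, 37.0% and 41.1% were called higher in the same order, and 18.6%, 43.2% and 48.0% lower. The part of these tissue markers in the Mediator results was not tested. The targeted transcripts were lower in their own knockdown. For *wah* (*nsl1*) the NSL1 RNAi libraries had 3833, 3550.1 and 3516 normalized reads against 6961, 6715 and 6409 in their controls. For *dgt1* (*nsl2*) the NSL2 RNAi libraries had 1128, 1317 and 1277 against 1901, 1872 and 1638. For *Rcd1* (*nsl3*) the NSL3 RNAi libraries had 2366, 2930.0 and 2444 against 4945, 5102 and 4574. None of these groups overlapped. Every knockdown library lay below every control in 48.9%, 29.4% and 46.9% of all genes tested in NSL1, NSL2 and NSL3 RNAi. The falls were not confined to the own knockdown. *dgt1* stood at 43.6% of its control mean in NSL1 RNAi and 68.8% in NSL2 RNAi. *Rcd1* stood at 56.7% and 81.6% in the same groups. *wah* stood at 88.8% in NSL2 RNAi, which did not pass the threshold (adjusted p = 0.0724 by limma).

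Of the 29 members, 27 had reads in every library, between 124 and 16130 reads each, and all 27 passed the minimum mean of 10 normalized reads in each comparison. *MED9*, of the middle module, and *MED23*, a tail subunit known in mammals as a target of activators, are listed at 0 in all 12 libraries. So are *Rpb4*, a polymerase subunit, and *Tfb5*, a subunit of TFIIH, among the other transcription genes examined. Hence these entries are given as listed, and no level is read from them. Over the 3 libraries of a group the members had a median coefficient of variation of 5.60% for *white* RNAi, 4.89% for NSL1, 6.78% for NSL2 and 12.9% for NSL3. The highest values were 11.9% (*MED19*), 15.7% (*MED27*), 23.9% (*skd*) and 30.9% (*MED21*) in the same order. *kto*, *Cdk8* and 11 others with reads share no sequence with a neighbouring gene in the current annotation (Release 6 plus ISO1 MT), whereas 14 overlap at least 1 other gene, and the strand used in counting is not stated.

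Transcripts of almost the whole complex were lower in NSL1 RNAi. By limma, a linear model fitted to all features of a table with log2(normalized reads + 1), 26 of the 27 tested members fell at a Benjamini-Hochberg adjusted p below 0.05 and 1, *kto*, rose. Among all 9084 genes tested, 48.0% were called lower and 41.1% higher, and among the genes with a mean of at least 50 normalized reads the shares were 55.4% and 33.7%. In each of the 26 members every NSL1 RNAi library lay below every *white* RNAi library, which held for 48.9% of all genes tested, and in *kto* every NSL1 RNAi library lay above (41.6% of all genes). The median log2 fold change (log2FC) of the members was -0.91 against -0.13 for all genes. With a fold above 2 as well, 9 members were lower and 0 higher (20.4% and 31.8% of all genes). The 13 members without an overlapping gene (12 lower, 1 higher) and the 14 with one (14 lower) had medians of -0.99 and -0.77.

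**Figure D1:**
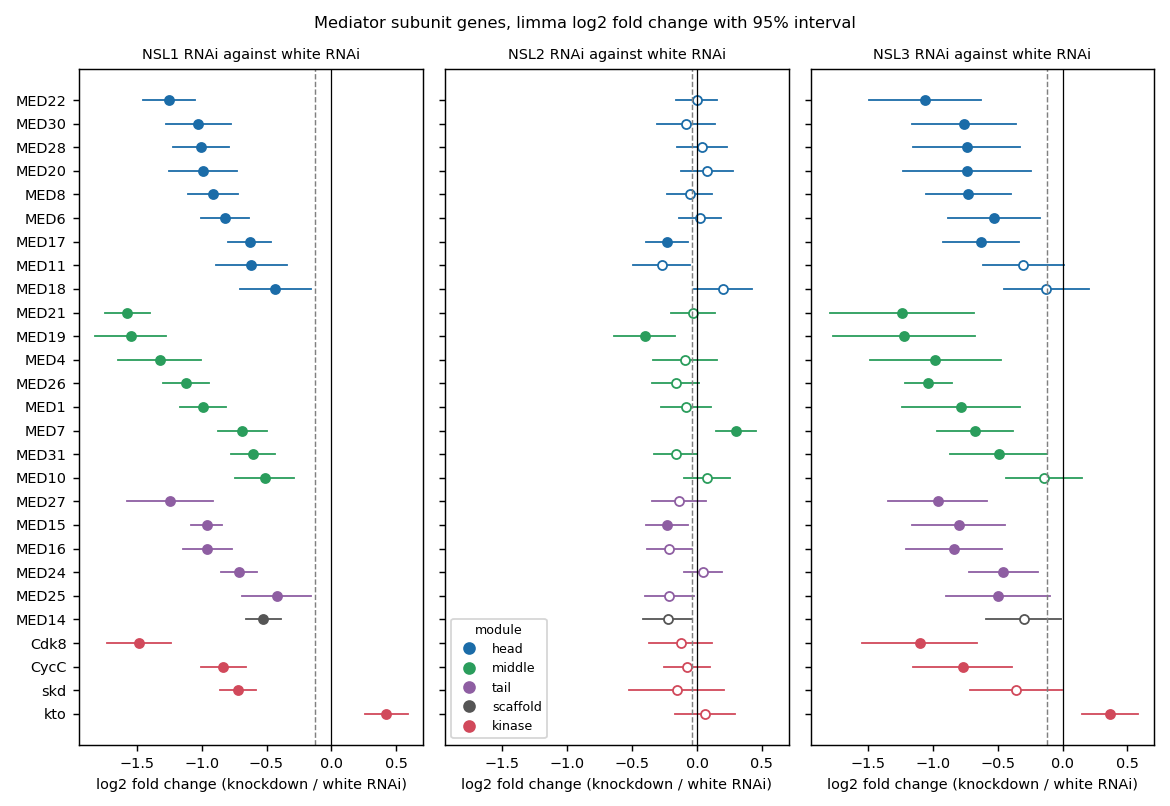
Log2 fold change of each Mediator gene with reads (27 rows, coloured by module) in NSL1, NSL2 and NSL3 RNAi against *white* RNAi, with 95% intervals from limma. Filled points have an adjusted p below 0.05, the dashed line is the median of all genes tested. In the NSL1 panel 26 points lie left of 0 and *kto* lies right of it at 0.42, in the NSL2 panel 4 points are filled, and in the NSL3 panel 22 are.

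The kinase module held the single gene that rose, *kto*, and 1 of the 3 largest falls, in *Cdk8*. *Cdk8*, the kinase itself, had 754, 708 and 635 normalized reads in *white* RNAi and 243, 232 and 274 in NSL1 RNAi (log2FC -1.48, SE 0.11, adjusted p = 1.66e-06 by limma, n = 3 per group). Its cyclin, *CycC*, had 889, 949 and 840.4 against 500.4, 487 and 515 (log2FC -0.83, SE 0.08, adjusted p = 7.96e-06 by limma). The transcripts of the kinase and its cyclin thus fell without overlap between the groups. *skd*, which tethers the kinase module to the core of Mediator, had 8813, 8711 and 9967 against 5435, 5658 and 5581 (log2FC -0.72, SE 0.06, adjusted p = 4.45e-06 by limma). *kto*, whose protein activates Cdk8 in yeast and mammals, had 1991, 1769 and 2043 against 2651, 2697 and 2433 (log2FC 0.42, SE 0.07, adjusted p = 0.000408 by limma). So the Med12 gene stood at 134% of its control mean in NSL1 RNAi while the other kinase module genes stood at 35.8% to 60.7% of theirs. Under scaling by the genes alone, which moves the median of all genes from -0.13 to 0.02, *kto* stood at 0.57 and all 27 calls kept their direction.

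The backbone gene *MED14* had 3281, 3237 and 3152 normalized reads in *white* RNAi and 2383, 2257 and 2094 in NSL1 RNAi (log2FC -0.52, SE 0.06, adjusted p = 3.02e-05 by limma). All 9 head genes fell, with a median log2FC of -0.91. The largest of these changes was in *MED22* (1204, 1190.1 and 1059 against 527, 459.7 and 464, log2FC -1.25), followed by *MED30* (-1.03), *MED28* (-1.01), *MED20* (-0.99), *MED8* (-0.91) and *MED6* (-0.82). *MED17*, the central head subunit in yeast, stood at -0.63 and *MED11* at -0.62. *MED18*, which in yeast forms the movable jaw of the head with MED20, changed least of the head genes. Its values were 396, 357 and 333 against 299, 258 and 248 (log2FC -0.43, SE 0.12, adjusted p = 0.00772 by limma).

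The 8 middle genes with reads fell too, with a median log2FC of -1.06, and included the largest changes of the complex. *MED21*, which pairs with MED7 in the flexible hinge of the middle module in yeast, had 1894, 1959 and 1705 normalized reads in *white* RNAi and 659, 606 and 599 in NSL1 RNAi (log2FC -1.57, SE 0.08, adjusted p = 1.50e-07 by limma). *MED19*, a contact of Hox proteins in Drosophila, had 2385, 2075 and 1842 against 761, 781 and 612 (log2FC -1.55, SE 0.12, adjusted p = 2.43e-06 by limma). These genes were left with 33.5% and 34.2% of their control means. The hinge partner *MED7* stood at -0.69 (694, 667 and 634 against 417, 430.2 and 392), so the paired hinge genes differed in the size of their fall. *MED4* (-1.32), *MED26* (-1.12), which in mammals recruits elongation factors, and *MED1* (-0.99), the contact of nuclear hormone receptors in mammals, lay between, and *MED31* (-0.61) and *MED10* (-0.51) fell least.

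All 5 tail genes with reads fell, with a median log2FC of -0.96. *MED15*, the tail's main activator target in yeast, had 2129, 2114 and 2063 normalized reads against 1101, 1087 and 1047 (log2FC -0.96), and *MED16* stood at the same -0.96. *MED27* (-1.24) and *MED24* (-0.71) lay on either side. *MED25*, bound by the viral activator VP16 in mammals, changed least of the 26 genes that fell, with 621, 574 and 579 against 502, 456 and 375 (log2FC -0.42, SE 0.12, adjusted p = 0.00771 by limma). The calls of *MED18* and *MED25* were lost with DESeq2 (adjusted p = 0.0800 and 0.0806 by DESeq2). The head, middle and tail thus fell by similar medians, and the spread among genes within a module was larger than that between modules. Outside the rule, *ix* (intersex), which encodes Med29 and acts with Doublesex in female differentiation, went from 454, 429 and 391 to 188, 150.0 and 192 (log2FC -1.27).

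**Figure D2:**
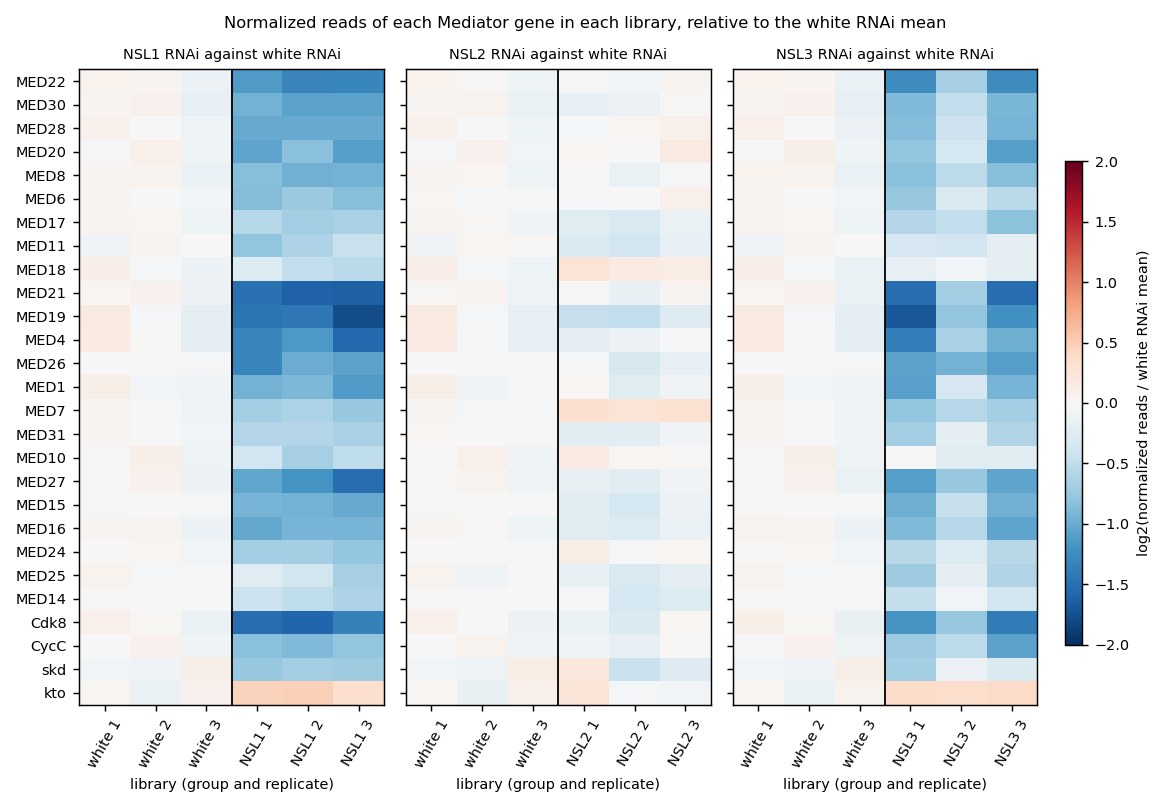
Normalized reads of the 27 Mediator genes (rows) in each library (columns, *white* RNAi left of the black line in each panel), as log2 of the value over the *white* RNAi mean of the same table. Blue is lower and red is higher. All *kto* cells of NSL1 and NSL3 RNAi are red, nearly all others there are blue, and NSL3 RNAi library 2 is paler than libraries 1 and 3.

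NSL3 RNAi gave the same kind of picture with wider spread. Of the 27 members, 21 fell and 1, *kto*, rose, while 43.2% of the 8899 genes tested were called lower and 37.0% higher (49.2% and 30.8% at a minimum mean of 50). Every NSL3 RNAi library lay below every *white* RNAi library in 24 members (46.9% of all genes) and above in *kto* (38.9% of all genes). The members' median log2FC was -0.74 against -0.12 for all genes. With a fold above 2, 5 were lower and 0 higher (14.6% and 29.6% of all genes). NSL1 and NSL3 RNAi were compared with the same *white* RNAi libraries, so their values are not independent.

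The libraries of NSL3 RNAi differed among themselves. Replicate 2 held the highest value of the 3 in 20 of the 27 members, and its median ratio to the mean of replicates 1 and 3 was 1.19. The 26 members other than *kto* stood at a median of 0.569, 0.720 and 0.527 times their *white* RNAi means in replicates 1, 2 and 3. The nurse cell and oocyte markers summed to 36248, 93986 and 56564 normalized reads in the same order and the muscle markers to 570717, 255799 and 489386, so replicate 2 was also highest in germline and lowest in muscle RNA. The part of this in the members' values was not tested. Without replicate 2, 23 members were lower and 1 higher, *MED14* and *skd* being added.

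In the kinase module, *Cdk8* had 689, 646 and 575 normalized reads in *white* RNAi and 282, 376 and 243 in NSL3 RNAi (log2FC -1.10, SE 0.19, adjusted p = 0.00167 by limma). *CycC* had 812, 866 and 762 against 493, 564 and 387 (log2FC -0.77, SE 0.16, adjusted p = 0.00372 by limma). *skd* had 8052, 7946 and 9032 against 5218, 7700.2 and 6796 (log2FC -0.36, SE 0.15, adjusted p = 0.0572 by limma), which did not pass the threshold with all libraries and did without replicate 2 (adjusted p = 0.00504 by limma). *kto* had 1819, 1614 and 1852 against 2265, 2253 and 2287 (log2FC 0.37, SE 0.09, adjusted p = 0.00753 by limma). The NSL3 RNAi values of *kto* lay close together in this scaling, although the members as a whole varied most in this group. With the 12 libraries scaled together by the genes they were 2414, 2197 and 2436. The Med12 gene was thus the single member above its control in both atrophied groups.

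The scaffold gene *MED14* had 2998, 2953 and 2856 normalized reads against 2117, 2836 and 2253 in NSL3 RNAi (log2FC -0.30, SE 0.12, adjusted p = 0.0550 by limma). Of the 9 head genes 7 fell (median log2FC -0.73), led by *MED22* (1101, 1086 and 959 against 438, 658 and 437, log2FC -1.06). Those not called were *MED11* (-0.30), whose libraries did not overlap, and *MED18*, with 362, 326 and 302 against 295, 318 and 293 (log2FC -0.12, SE 0.14, adjusted p = 0.428 by limma). Among the 8 middle genes 7 fell (median -0.88). *MED21* had 1730.3, 1787 and 1545 against 584, 1057 and 588 (log2FC -1.24, SE 0.24, adjusted p = 0.00250 by limma). *MED19* had 2179, 1893 and 1669 against 592, 1109 and 822 (log2FC -1.22, SE 0.23, adjusted p = 0.00240 by limma). In both genes replicate 2 lay far above the other NSL3 RNAi libraries and still below every control. *MED26* changed with the least error of the middle genes (11767, 11889 and 11458 against 5604, 6055 and 5473, log2FC -1.04, SE 0.08). *MED10* was the exception of the module, with 705, 778 and 665 against 718, 608 and 621 (log2FC -0.14, SE 0.12, adjusted p = 0.320 by limma), and its groups overlapped. All 5 tail genes with reads fell, from *MED27* (-0.96) to *MED24* (-0.46). The call of *MED25* (-0.50) was lost with DESeq2, with scaling by the genes alone, and without any library of either group except NSL3 RNAi replicate 2. *ix* stood at -0.70.

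**Figure D3:**
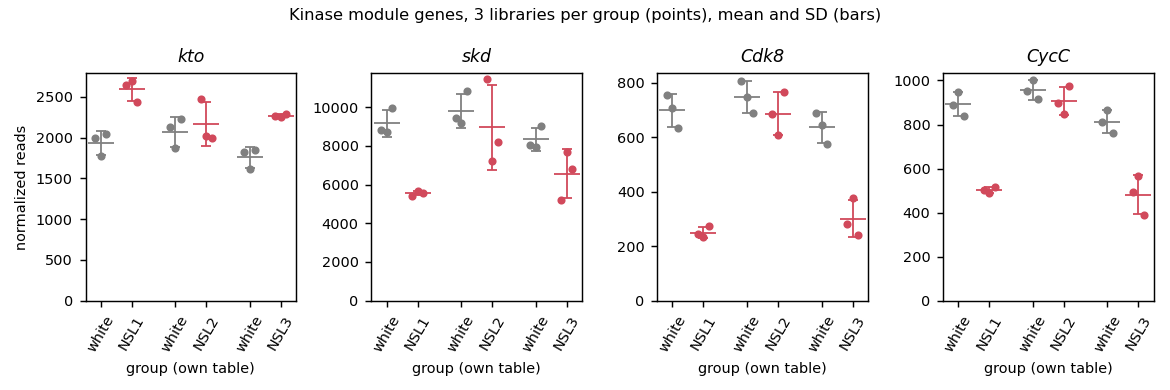
Normalized reads of the 4 kinase module genes in each library (points) with the group mean and SD (bars, n = 3), each knockdown beside the *white* RNAi libraries of its own table. *kto* lies above its controls in NSL1 and NSL3 RNAi, where *Cdk8* and *CycC* lie below theirs, and in NSL2 RNAi all 4 genes overlap their controls.

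In NSL2 RNAi, where the ovaries are morphologically normal, few members changed. By limma 3 of the 27 fell, *MED19*, *MED17* and *MED15*, and 1 rose, *MED7*, against 18.6% of the 8046 genes tested called lower and 16.1% higher (20.4% and 14.2% at a minimum mean of 50). No member passed a fold of 2 (1.17% and 8.46% of all genes did, lower and higher). The median log2FC was -0.09 for the members and -0.04 for all genes. The libraries did not overlap in 9 members that were lower and in 2, *MED7* and *MED18*, that were higher (29.4% and 23.4% of all genes), and they overlapped in the other 16. These shares of called members lie near or below those of all genes. Without *white* RNAi replicate 2 none of the 4 genes was called. Without *white* RNAi replicate 1 or without NSL2 RNAi replicate 2, 0 members were lower and 1, *MED7*, was higher.

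*MED19* had 2552, 2190.3 and 2003 normalized reads in *white* RNAi and 1627, 1592 and 1874 in NSL2 RNAi (log2FC -0.40, SE 0.10, adjusted p = 0.0205 by limma). *MED17* had 1299, 1269 and 1189 against 1054, 1009.7 and 1137 (log2FC -0.23, SE 0.07, adjusted p = 0.0370 by limma). *MED11*, its neighbour in the head in yeast, had 388, 418 and 415 against 335, 312 and 364 (log2FC -0.27, SE 0.10, adjusted p = 0.0584 by limma), which did not pass. *MED7*, of the middle hinge, had 743, 704 and 689.9 against 892, 859 and 883 (log2FC 0.30, SE 0.07, adjusted p = 0.0130 by limma). Its direction was the opposite of that in NSL1 and NSL3 RNAi, where it fell. *MED18* had 424, 377 and 362 against 468, 437 and 431 (log2FC 0.20, SE 0.10, adjusted p = 0.132 by limma), and *MED10* 825, 901 and 798 against 944, 861 and 856 (log2FC 0.08, SE 0.08, adjusted p = 0.457 by limma). *MED15*, the third gene that fell, had 2278, 2232 and 2244 against 1938, 1756 and 2078 (log2FC -0.23).

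None of the kinase module genes was called in NSL2 RNAi, and their intervals bound the change. *kto* had 2131, 1868 and 2223 normalized reads against 2478, 2027 and 2002 (log2FC 0.06, 95% interval -0.17 to 0.30, SE 0.10, adjusted p = 0.652 by limma). *Cdk8* had 807, 747 and 691 against 685, 610.1 and 768 (log2FC -0.13, 95% interval -0.37 to 0.12, SE 0.10, adjusted p = 0.367 by limma). *CycC* had 952, 1002 and 914 against 898, 849 and 973 (log2FC -0.08, 95% interval -0.25 to 0.10, SE 0.08, adjusted p = 0.445 by limma). The groups overlapped in each of these. *skd* had 9432, 9195 and 10843 against 11452, 7234 and 8186 (log2FC -0.16, 95% interval -0.52 to 0.21, SE 0.16, adjusted p = 0.455 by limma), where replicate 1 lay above every control and replicates 2 and 3 below. Without NSL2 RNAi replicate 1 *skd* passed the threshold, at a log2FC of -0.35 (adjusted p = 0.0224 by limma). *MED14* had 3511, 3417 and 3429 against 3357, 2692 and 2843 (log2FC -0.23, SE 0.08, adjusted p = 0.0638 by limma) and passed without the same library (adjusted p = 0.00651 by limma).

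The knockdowns were then compared with each other directly, in 1 fit over the 12 libraries scaled together by the genes. The fold is between the knockdown means, while the *white* RNAi libraries still enter the size factors and the estimate of the spread. NSL1 RNAi differed from NSL2 RNAi in 21 of the 27 members, 20 lower and *kto* higher, where 38.2% of the 9090 genes tested were called lower and 41.2% higher. The members' median log2FC was -0.63 against 0.03 for all genes. In this scaling *kto* had 2577, 2637 and 2399 normalized reads in NSL1 RNAi and 1939, 1604 and 1588 in NSL2 RNAi (log2FC 0.57, SE 0.09, adjusted p = 0.000178 by limma). *Cdk8* had 237, 227 and 270.3 against 536, 483 and 609 (log2FC -1.14, SE 0.14, adjusted p = 2.17e-05 by limma), and *MED21* showed the largest difference at -1.33. The *Cdk8* and *kto* transcripts thus differed between these knockdowns in opposite directions. The 6 members not called were *skd*, *MED31*, *MED17*, *MED11*, *MED14* and *MED25*, with *MED25* at 0.00 (95% interval -0.28 to 0.29) and *MED14* at -0.09 (95% interval -0.29 to 0.12).

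NSL3 RNAi differed from NSL2 RNAi in 20 members, 19 lower and *kto* higher (38.0% and 39.2% of all genes), with a median log2FC of -0.52 against 0.00 for all genes. *kto* had 2414, 2197 and 2436 normalized reads in NSL3 RNAi in this scaling (log2FC 0.46, SE 0.09, adjusted p = 0.000969 by limma). *MED7* was lower by 0.82 on the log2 scale (372, 399.6 and 402 against 698, 679.5 and 700.3), without overlap. *skd* stood at -0.05 (95% interval -0.39 to 0.30), *MED14* at 0.08 (95% interval -0.13 to 0.29) and *MED10* at -0.06 (95% interval -0.31 to 0.18).

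Between NSL1 and NSL3 RNAi, 2 members were called, both lower in NSL1 RNAi, against 21.6% of all genes lower and 15.4% higher, and the median was -0.20 against -0.09 for all genes. *MED10* had 586, 485 and 545 normalized reads in NSL1 RNAi and 765, 593 and 662 in NSL3 RNAi (log2FC -0.32, SE 0.11, adjusted p = 0.0423 by limma), and *MED24* had 1006, 1017 and 958 against 1103, 1225 and 1097 (log2FC -0.20, adjusted p = 0.0498 by limma). With the 6 libraries of these knockdowns alone neither passed, and leaving out 1 library gave 5 calls without NSL3 RNAi replicate 1, 0 without NSL1 RNAi replicate 2 or 3, and 1 without any other knockdown library. *kto* stood at 0.11 (95% interval -0.10 to 0.32) and *Cdk8* at -0.32 (95% interval -0.64 to -0.01, adjusted p = 0.0939 by limma), so a difference between these knockdowns was not resolved for either gene.

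Ratios of reads within a library do not depend on scaling. The reads of *kto* over those of *Cdk8* were 2.64, 2.50 and 3.22 in *white* RNAi, 10.9, 11.6 and 8.87 in NSL1 RNAi, 3.62, 3.32 and 2.61 in NSL2 RNAi, and 8.02, 6.0 and 9.42 in NSL3 RNAi. This ratio was 3.75 times the control mean in NSL1 and 2.80 times in NSL3 RNAi, with no overlap with the controls, and overlapped them in NSL2 RNAi. The reads of *kto* over those of *skd*, the genes of the paired large subunits Med12 and Med13, were 0.226, 0.203 and 0.205 in *white* RNAi and 0.488, 0.477 and 0.436 in NSL1 RNAi. They were 0.434, 0.293 and 0.336 in NSL3 RNAi, again without overlap, and 0.216, 0.280 and 0.245 in NSL2 RNAi. The reads of *kto* over those of the backbone gene *MED14* were 0.607, 0.547 and 0.648 in *white* RNAi, 1.11, 1.19 and 1.16 in NSL1 RNAi, 0.738, 0.753 and 0.704 in NSL2 RNAi, and 1.07, 0.795 and 1.02 in NSL3 RNAi. All 3 knockdowns lay above the controls in this ratio, NSL2 RNAi by 1.22 times their mean, although neither gene was called in NSL2 RNAi. The other measures of *kto* in NSL2 RNAi overlapped the controls. Its reads over those of *CycC* were 2.06 to 2.76 against 1.86 to 2.43. Its log2 reads minus the median of the other members were 1.20 to 1.47 against 1.04 to 1.42, a difference in means of 0.07. The ratio of *Cdk8* to its cyclin *CycC* was 0.848, 0.746 and 0.756 in *white* RNAi, 0.487, 0.477 and 0.532 in NSL1 RNAi, and 0.573, 0.666 and 0.627 in NSL3 RNAi. The transcript of the kinase thus stood lower relative to that of its cyclin in both of these groups, and protein was not measured. With 3 libraries against 3 an exact permutation test cannot give a two-sided p below 0.1, so these ratios are given without a test.

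**Figure D4:**
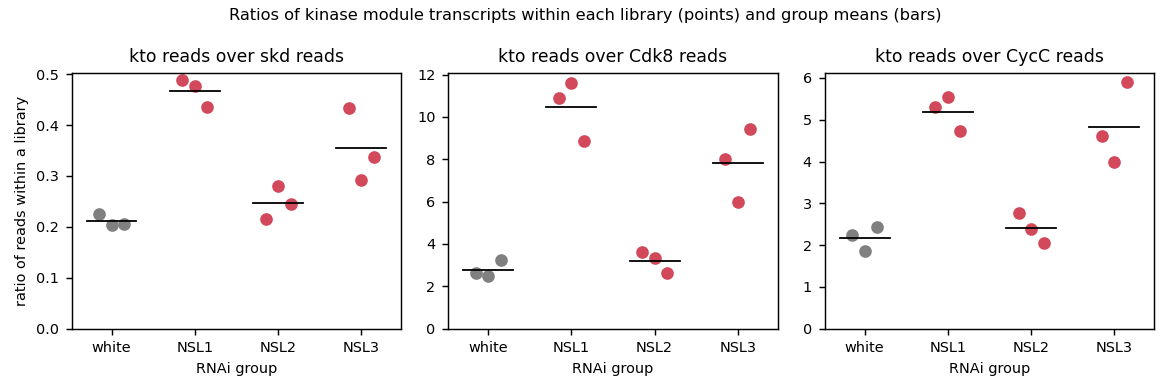
Reads of *kto* over reads of *skd*, *Cdk8* and *CycC* within each library (points, 3 per group, bars are means). The 3 NSL1 and 3 NSL3 RNAi libraries lie above the *white* RNAi libraries in each panel, with *kto* over *Cdk8* between 6.0 and 11.6 against 2.50 to 3.22.

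Other parts of the polymerase II machinery were set beside Mediator. In NSL1 RNAi, 48.0% of all genes tested were called lower and 41.1% higher, with a median log2FC of -0.13. There 8 of 11 tested polymerase II subunit genes fell and 1, *RpII18*, rose (median log2FC -0.35). Of 13 TFIID genes 12 fell (median -0.70), of which *Tbp*, the TATA-binding protein, stood at -1.75 and *Taf7* at -1.69, while *Taf10* at 0.04 was not called. All 14 tested genes of TFIIB, TFIIE, TFIIF and TFIIH fell (median -1.07), led by *TfIIFbeta* at -1.95. They include *CycH* (-1.35), *Mat1* (-1.32) and *Cdk7* (-0.88), the other cyclin-dependent kinase complex of initiation. All 8 elongation genes fell (median -0.73), among them *Cdk9* at -0.38 and *CycT* at -0.87. The Mediator median of -0.91 thus lay between that of the polymerase subunits and that of the general factors.

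In NSL3 RNAi 9 of 11 polymerase genes, 10 of 13 TFIID genes, 12 of 14 genes of the general factors and 8 of 8 elongation genes fell, and none rose. Their medians were -0.53, -0.56, -1.02 and -0.65, beside -0.74 for Mediator and -0.12 for all genes. Of all genes tested in NSL3 RNAi, 43.2% were called lower and 37.0% higher. In NSL2 RNAi the same lists gave 0, 3, 1 and 2 lower and 1, 2, 0 and 0 higher, with medians of 0.07, -0.13, -0.14 and -0.16. Of all genes tested in NSL2 RNAi, 18.6% were called lower and 16.1% higher, with a median of -0.04. The TFIID genes called higher there were *Taf10* (0.33) and *Taf10b* (0.33), and the polymerase gene was *RpII18* (0.40). Mediator therefore did not stand outside the range of these lists in any of the 3 knockdowns.

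**Figure D5:**
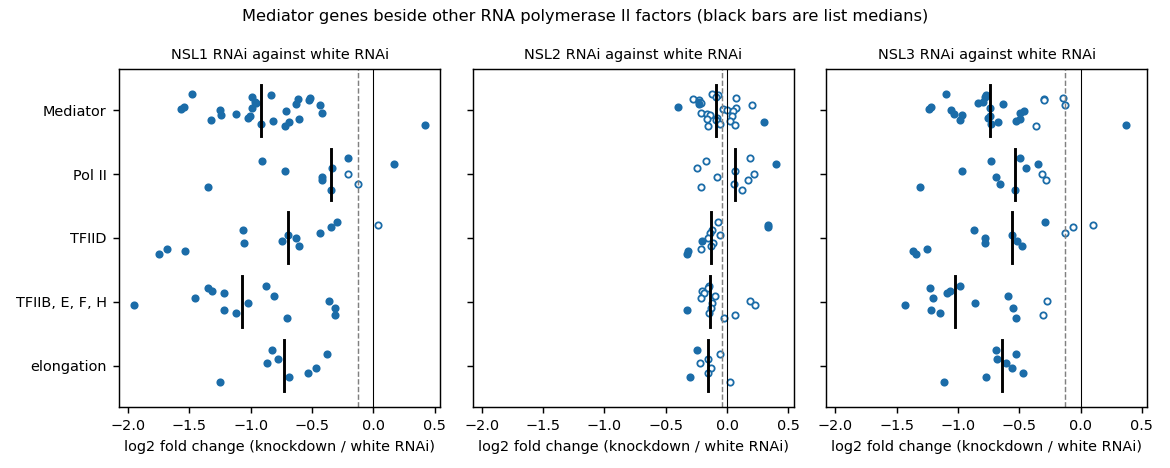
Log2 fold change against *white* RNAi of each Mediator gene and of each tested gene of RNA polymerase II, TFIID, the factors TFIIB, TFIIE, TFIIF and TFIIH, and elongation (points, filled where adjusted p is below 0.05). Black bars are list medians and the dashed line is the median of all genes tested. In NSL1 RNAi the medians run from -1.07 (general factors) to -0.35 (polymerase), with Mediator at -0.91.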

How the data were processed

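RNA-seq of 12 ovary libraries (3 tables, each 1 knockdown beside the same 3 *white* RNAi libraries) was used. Deposited values are a normalized signal, in which the authors had scaled each library's reads on genes, transposon insertions, repeats and piRNA clusters by a size factor of its own. By the study's methods, ribosomal reads were removed with bowtie2, the rest aligned with STAR in piPipes to dm3, and counted with featureCounts or eXpress. The submitters' processing notes name DESeq2. Versions and the strand used in counting are not given in the sources used here. Spike-in size factors are described, but the tables hold 0 ERCC rows and the recovered factors match a median-of-ratios estimate taken across every row. The deposited fold change, standard error, statistic, p-value and mean columns come from the authors' DESeq2 comparison and were not used. No value column of a library was left out (0 unused).

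The record labels carry a replicate number of 1 alone. Columns numbered 2 and 3 were taken as further crosses, which the study's methods describe. P-values measure the spread between these libraries.

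Each table was tested alone with limma 3.58.1 (mean-variance trend, R 4.3.3) on log2(value + 1), insertions summed by family, features with a mean of at least 10, Benjamini-Hochberg over all of them, called at adjusted p below 0.05. A fold change on this scale understates the change of low genes. Dividing by the step of a library returned integer reads for 100% of values (tolerance 1e-06). Direct comparisons used those reads, scaled by the median of ratios over genes. Alternatives were quasi-likelihood tests in edgeR 4.0.16, DESeq2 1.42.0 (both on the integer reads), other scalings, an adjusted p below 0.01, a minimum mean of 50 or none, pseudocounts of 5 and 0.5, each library left out and a replicate block. limma was tested on simulated data. Tables and figures were made with Python 3.11.15.

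The members, the lists and the rule for full statistics (kinase module, *MED14* and the 3 highest and 3 lowest members of a comparison) were chosen with earlier results of these data known. *Tfb2* and *mrn* are 1 gene and were counted once. Overlaps with neighbours come from gene coordinates in the RefSeq annotation of Release 6 plus ISO1 MT. The study aligned its reads to dm3, so these overlaps do not come from the assembly used in counting. Reads of different genes were not compared as levels, because transcript lengths were not used.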

Additional observations from a re-analysis of the deposited data

How the results depend on the processing

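The directions and calls in NSL1 RNAi were the most stable. Over all the alternatives run, 24 to 26 members were lower and 1 was higher, with edgeR at 26 and 1, and with each library left out 26 and 1. In NSL3 RNAi, leaving out each library gave 17 to 23 lower and 1 higher, and edgeR gave 21 and 1. In NSL2 RNAi the 3 lower and 1 higher became 0 and 0 at an adjusted p below 0.01, and leaving out each library gave 0 to 4 lower and 0 to 1 higher. There edgeR gave 3 and 1, DESeq2 2 and 1. The replicate block (pairing libraries by number) gave 1 lower and 0 higher in NSL2 RNAi and 1 difference between NSL1 and NSL3 RNAi, and changed no other count by over 1.5 times. Same-numbered libraries did not deviate together (correlations of -0.15 to 0.00 for NSL1, -0.44 to 0.07 for NSL2 and -0.16 to 0.24 for NSL3 RNAi), so the numbers are not taken as pairs. Between NSL1 and NSL3 RNAi, no filter gave 0, the 6 libraries alone gave 0, and leaving out each library 0 to 5. Leaving out each library gave 21 to 22 differences between NSL1 and NSL2 RNAi and 19 to 21 between NSL3 and NSL2 RNAi. The cause of these changes was not tested. Under scaling by the genes alone the median of all genes became 0.02 in NSL1 (from -0.13) and -0.02 in NSL3 RNAi (from -0.12), and the members' median became -0.77 and -0.63. *kto* kept its sign and call in NSL1 and NSL3 RNAi under every alternative, with log2 fold changes of 0.36 to 0.59 and 0.31 to 0.51. The promoter motifs planned for the members were not run. The members with fewest reads (from 124 in a library) carry the most counting error, and 3 libraries per group limit the precision of every value.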
